A study of Mus musculus with 6 samples.

Results

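The genes examined were 10 receptor genes through which myeloid cytokines act: *Flt3*, *Csf1r*, *Csf2ra*, *Csf2rb*, *Csf2rb2*, *Csf3r*, *Il3ra*, *Il6ra*, *Il6st* and *Il1rl1*. They were chosen by name, and all 10 were found by their Ensembl identifiers among the 12101 genes measured. RNA was sequenced from megakaryocyte–erythroid progenitors (MEPs), the bone marrow cells that give rise to red blood cells and to platelet-forming megakaryocytes. The MEPs came from adult *Nanog*-tg mice, labelled CD-1 by strain, of which 3 libraries were from mice given doxycycline (dox) in the drinking water for 5 days and 3 from untreated mice. Both groups carry the same alleles, R26-M2rtTA, the dox-dependent activator placed at Rosa26, and Col1a1-tetO-Nanog, the *Nanog* copy that it switches on. The activator is not restricted to MEPs, so that other cells of the dox-treated animal can express *Nanog* too, and an effect of dox itself cannot be told apart from that of *Nanog*. MEPs were sorted as lineage-negative, c-Kit+ and Sca1- cells by CD34 and CD16/32, and whether the cells of several mice were pooled is not given in the sources used here. The p-values therefore measure the spread between these libraries, which may be technical in part.

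Cytokine receptors sit in the cell membrane and decide which growth factors a progenitor can answer to. *Flt3* and *Csf1r* encode receptor tyrosine kinases, which phosphorylate their targets themselves when a ligand brings their chains together. *Csf2ra*, *Il3ra* and *Il6ra* encode chains that bind a ligand, *Csf3r* encodes a chain that both binds G-CSF and signals, and *Csf2rb*, *Csf2rb2* and *Il6st* encode chains that transmit the signal through JAK kinases and STAT transcription factors. *Il1rl1* encodes ST2, the receptor of IL-33, which belongs to the interleukin 1 receptor family and signals through MyD88. In bone marrow, the receptors for M-CSF, G-CSF and GM-CSF are known from granulocyte and monocyte precursors, FLT3 from multipotent and lymphoid-primed progenitors, and ST2 from mast cells and basophils.

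Expression is given as CPM, reads per 1000000 of the normalized size of a library. Between 11264803 and 16153600 reads per library fell on the measured genes, so that 1 read stood for 0.0642 to 0.091 CPM. *Nanog* had between 15959 and 19609 reads in the dox-treated libraries and between 1 and 13 in the untreated ones, as the labels state. All 21 listed markers of MEPs were detected in every library, with a summed level of 6188, 5869 and 9592 CPM in dox replicates 1 to 3 and of 8782 to 9118 CPM in the untreated libraries. Dox replicates 1 and 2 were thus below every untreated library, and dox replicate 3 was above them all. Dox replicate 3 stood apart from the other 5 libraries, at -51.7 on the second principal component against -4.83 to 20.2. It was the lowest of the dox-treated libraries for 7 of the 10 receptor genes. Results that rest on it are therefore given with and without it.

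Between the groups, limma called 0 receptor genes higher and 1 lower with dox at an adjusted p under 0.05 (Benjamini-Hochberg over all 12088 genes tested). Over all genes tested, 4.59% were called higher and 3.18% lower. At an unadjusted p under 0.05, 4 of the 10 receptor genes passed in either direction, against 29.2% of all genes. The receptor gene that fell was *Csf1r*, the M-CSF receptor of monocytes and macrophages. In 3 genes, *Csf1r*, *Csf3r* and *Il6ra*, every dox-treated library was below every untreated library, and in 1, *Csf2rb2*, every dox-treated library was above. The same held for 18.2% of all genes in the lower direction and for 17.7% in the higher. Mean log2 values were higher with dox in 6 receptor genes and lower in 4, with a median log2 fold change of 0.40 against -0.03 over all genes tested. Without dox replicate 3, limma called 2 receptor genes higher, *Csf2rb2* and *Il3ra*, and 2 lower, *Csf1r* and *Csf3r*. Over all genes that omission gave 14.9% higher and 14% lower, the shares against which every count without this library is to be read. Without any other single library it called 0 in either direction. Those omissions called from 0.761% to 1.18% of all genes higher and from 0.298% to 1.04% lower.

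**Figure D1:**
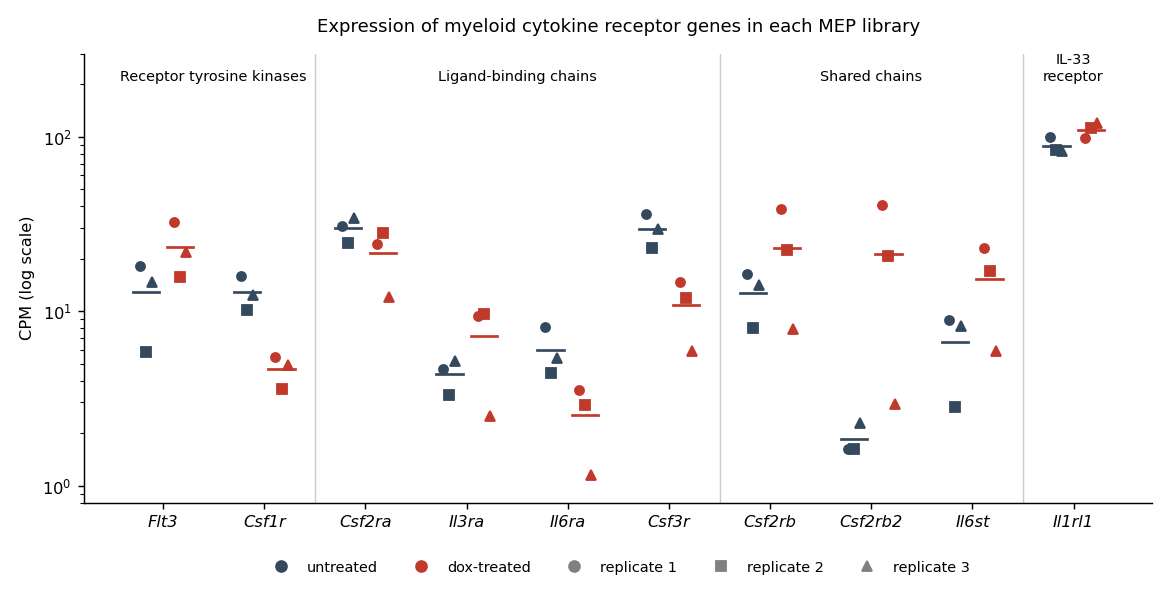
Expression of each receptor gene (CPM, log axis) in the 3 untreated and 3 dox-treated MEP libraries, with the marker shape giving the replicate and the line the group mean. *Csf1r*, *Csf3r* and *Il6ra* sit lower in every dox-treated library, *Csf2rb2* sits higher, and dox replicate 3 is the lowest dox-treated library in 7 of the 10 genes.

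Among the receptor tyrosine kinases, *Csf1r* (on chromosome 18) was expressed at 5.45, 3.57 and 4.94 CPM in dox replicates 1, 2 and 3, and at 15.9, 10.1 and 12.4 CPM in untreated replicates 1, 2 and 3. All dox-treated libraries were low and the groups did not overlap. The dox-treated mean was 4.65 ± 0.97 CPM (SD, n = 3) and the untreated mean 12.8 ± 2.93 CPM (SD, n = 3). By limma, this was a log2 fold change of -1.45 with a standard error of 0.23 and an adjusted p of 0.0245. The 95% interval of that log2 fold change ran from -2.02 to -0.88. In bulk RNA, fewer cells that express a gene and less of its RNA per cell cannot be told apart. The call held without dox replicate 3 (adjusted p = 0.0233, limma). It did not hold without any of the other libraries, omissions under which at most 1.04% of all genes were called lower. Leaving out dox replicates 1 and 2 in turn gave adjusted p-values of 0.0667 and 0.0783 (limma). For untreated replicates 1, 2 and 3 they were 0.0738, 0.0503 and 0.0904 (limma), with log2 fold changes between -1.61 and -1.27 over all 6 omissions.

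The 3′ exons of *Csf1r* share 871 bases with *Hmgxb3*, which lies on the opposite strand, and 17.7% of the 50-base windows of its transcript also occur in that gene. Whether the counting used strand is not given in the sources used here, so reads from the shared bases could count for either gene. *Hmgxb3* was at 69.5 to 73.1 CPM with dox and 69.7 to 85.5 CPM without, with an adjusted p of 0.517 (limma) for a log2 fold change of -0.12. Its level was far above that of *Csf1r*, so misplaced reads could make up a large part of the *Csf1r* level. Their number was not tested.

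*Flt3* (chr5:148142317-148212065, minus strand, NCBIM37), the receptor of FLT3 ligand, was expressed at 32.3, 15.7 and 21.9 CPM in dox replicates 1 to 3 and at 18.3, 5.84 and 14.6 CPM in untreated replicates 1 to 3. The highest value was in a dox-treated library and the lowest in an untreated one, but the groups overlapped. The 2.06-fold range among dox-treated libraries and the 3.13-fold range among untreated ones were both wider than the 1.92-fold difference between the groups. The log2 fold change was 0.94 with a 95% interval from -0.25 to 2.13 (adjusted p = 0.252, limma). It was 0.95 when dox replicate 3 was left out (adjusted p = 0.269, limma) and 0.45 when untreated replicate 2 was (adjusted p = 0.499, limma).

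The beta chains of the receptors for GM-CSF, IL-3 and IL-5 come in mice from a pair of neighbouring genes. *Csf2rb* (chr15:78156420-78184277, plus strand, NCBIM37) encodes the chain shared by all these receptors, and *Csf2rb2* (chr15:78112947-78136052, minus strand) encodes a chain that serves IL-3 alone. Their coding sequences have 2691 and 2637 bases, and 95.2% of the 2631 aligned bases are identical. Stretches from the NCBIM37 transcripts are shown because the values of this pair depend on telling these sequences apart. In the 90-base stretch where they differ most, 15 bases differ, which are in capitals. The stretch starts at coding base 301 of *Csf2rb* and at coding base 304 of *Csf2rb2*.
Csf2rb: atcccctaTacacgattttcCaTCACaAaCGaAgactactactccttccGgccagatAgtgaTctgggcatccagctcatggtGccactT
Csf2rb2: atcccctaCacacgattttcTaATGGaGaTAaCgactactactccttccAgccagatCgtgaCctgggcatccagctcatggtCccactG
By contrast, the following 90 bases are the same in both genes, from coding base 664 of *Csf2rb* and from coding base 667 of *Csf2rb2*, and a read that falls in them cannot be placed by its letters.
Csf2rb and Csf2rb2: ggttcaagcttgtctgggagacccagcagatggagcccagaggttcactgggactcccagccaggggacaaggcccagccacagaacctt
Of all 50-base windows, 18.8% of those in the *Csf2rb* transcript and 19.4% of those in the *Csf2rb2* transcript occur in another gene. If reads fell evenly over the *Csf2rb* transcript, its shared windows would hold 1.5 to 3.05 CPM in the untreated libraries, which is of the size of the whole untreated *Csf2rb2* level of 1.63 to 2.27 CPM. These windows were counted for any other gene and not for *Csf2rb2* alone. The low values of *Csf2rb2* are therefore uncertain by up to about as much as themselves.

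*Csf2rb2* was expressed at 40.6, 20.6 and 2.95 CPM in dox replicates 1 to 3, and at 1.63, 1.63 and 2.27 CPM in untreated replicates 1 to 3. These values rest on 552, 277 and 46 reads with dox and on 21, 22 and 25 reads without. The groups did not overlap, but dox replicate 3 was far closer to the untreated libraries than to dox replicates 1 and 2. The highest of the dox-treated libraries was 13.8 times the lowest. The log2 fold change was 2.87 with a standard error of 0.94 and a 95% interval from 0.57 to 5.16, and it did not pass the test (adjusted p = 0.111, limma). With dox replicate 3 left out it was 3.96 and passed (adjusted p = 0.00645, limma). The mean of dox replicates 1 and 2 was 16.6 times the untreated mean, and the level of dox replicate 3 was 1.6 times that mean.

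*Csf2rb* was expressed at 38.5, 22.4 and 7.96 CPM in dox replicates 1 to 3 and at 16.3, 7.98 and 14.1 CPM in untreated replicates 1 to 3. Dox replicates 1 and 2 were above every untreated library, and dox replicate 3 was below every one. The groups therefore overlapped, with a log2 fold change of 0.63 (95% interval from -0.86 to 2.12, adjusted p = 0.514, limma). Leaving out dox replicate 3 gave 1.26, still short of the threshold (adjusted p = 0.0719, limma). The estimate was 0.13 when dox replicate 1 was left out and 0.33 when untreated replicate 2 was.

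The share of *Csf2rb2* among the reads of both beta chain genes does not depend on the scaling of the libraries. It was 51.3% (Wilson 95% interval from 48.4% to 54.3%, of 1075 reads) in dox replicate 1 and 47.9% (from 43.9% to 52.0%, of 578 reads) in dox replicate 2. In dox replicate 3 it was 27.1% (from 20.9% to 34.2%, of 170 reads). The untreated libraries had 9.13%, 16.9% and 13.9% of 230, 130 and 180 reads, with intervals that reached 13.6%, 24.3% and 19.7%. Every dox-treated library had a larger share than every untreated library, although the interval of dox replicate 3 overlapped that of untreated replicate 2. The mean share was 42.1% ± 13.1 (SD, n = 3) with dox and 13.3% ± 3.93 (SD, n = 3) without. The difference of 28.8 percentage points had an exact permutation p of 0.1 (two-sided), the smallest that 3 libraries against 3 can give. It was 36.3 points without dox replicate 3. These intervals cover counting error only.

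**Figure D2:**
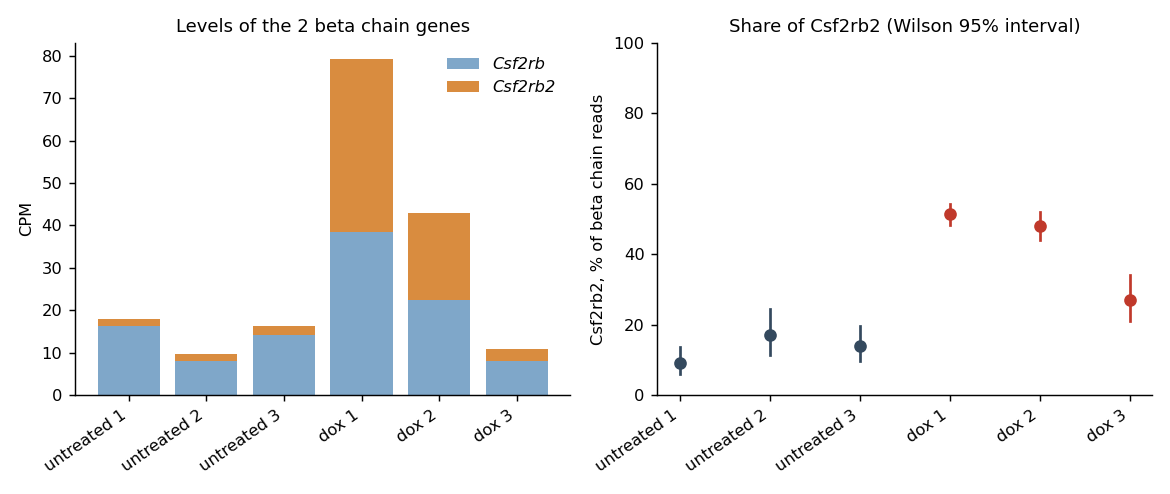
Left, CPM of *Csf2rb* and *Csf2rb2* stacked for each MEP library. Right, *Csf2rb2* as a percentage of the reads of both genes, with Wilson 95% intervals, which is between 9.13% and 16.9% in the untreated libraries and between 27.1% and 51.3% in the dox-treated ones.

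The alpha chains that bind GM-CSF and IL-3 before a beta chain joins them did not pass the test. *Csf2ra* (chr19:61300305-61304321, minus strand, NCBIM37), for GM-CSF, was at 24.4, 27.9 and 12 CPM in dox replicates 1 to 3 and at 30.8, 24.8 and 34.3 CPM in untreated replicates 1 to 3. Dox replicate 2 was inside the untreated range, and dox replicate 3 was well below it. The log2 fold change was -0.56 (95% interval from -1.39 to 0.27, adjusted p = 0.317, limma), and -0.19 without dox replicate 3.

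*Il3ra* (chr14:15179009-15188004, plus strand, NCBIM37), for IL-3, was at 9.35, 9.68 and 2.5 CPM in dox replicates 1 to 3 and at 4.67, 3.33 and 5.19 CPM in untreated replicates 1 to 3. As for *Csf2rb*, dox replicates 1 and 2 were above all untreated libraries and dox replicate 3 was below them all. Limma gave a log2 fold change of 0.49 (95% interval from -0.86 to 1.85, adjusted p = 0.575). Once dox replicate 3 was left out it was 1.13 and passed the threshold (adjusted p = 0.0244, limma). Leaving out dox replicate 1, dox replicate 2 or untreated replicate 2 gave 0.19, 0.16 and 0.31, none of which passed.

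*Csf3r* (chr4:125701794-125722219, plus strand, NCBIM37) encodes the receptor of G-CSF, the cytokine that drives neutrophil production. It was expressed at 14.7, 12 and 5.9 CPM in dox replicates 1 to 3 and at 35.9, 23 and 29.7 CPM in untreated replicates 1 to 3. All dox-treated libraries were below all untreated ones. The dox-treated mean was 10.8 ± 4.48 CPM (SD, n = 3) and the untreated mean 29.5 ± 6.47 CPM (SD, n = 3). The log2 fold change of -1.52, with a standard error of 0.37, missed the threshold (adjusted p = 0.062, limma). When its lowest library, dox replicate 3, was left out, it was -1.13 and passed (adjusted p = 0.0265, limma).

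The receptor of IL-6 pairs a chain that binds IL-6, encoded by *Il6ra*, with gp130, encoded by *Il6st* and shared with the receptors of IL-11, LIF and oncostatin M. *Il6ra* (chr3:89673246-89717084, minus strand, NCBIM37) was at 3.53, 2.9 and 1.16 CPM in dox replicates 1 to 3 and at 8.16, 4.43 and 5.37 CPM in untreated replicates 1 to 3. It was low in every dox-treated library and rested on 18 to 48 reads there. Its log2 fold change of -1.33 had a 95% interval from -2.46 to -0.20 and did not pass (adjusted p = 0.124, limma). It was -0.85 without dox replicate 3 (adjusted p = 0.0819, limma).

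*Il6st* (chr13:113265216-113297068, plus strand, NCBIM37) was at 23, 16.9 and 5.9 CPM in dox replicates 1 to 3 and at 8.94, 2.81 and 8.19 CPM in untreated replicates 1 to 3. Dox replicates 1 and 2 were above all untreated libraries, whereas dox replicate 3 was inside their range. The log2 fold change was 1.15 (95% interval from -0.46 to 2.77, adjusted p = 0.29, limma), and 1.73 without dox replicate 3 (adjusted p = 0.076, limma). It was 0.62 without untreated replicate 2 (adjusted p = 0.603, limma) and 0.75 without dox replicate 1 (adjusted p = 0.583, limma). The ligand-binding chain and gp130 thus had mean differences of opposite sign, neither of which passed.

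*Il1rl1* (chr1:40486415-40522260, plus strand, NCBIM37), the IL-33 receptor gene, was the most steadily expressed of the 10. It was at 98.2, 111.9 and 119.3 CPM in dox replicates 1 to 3 and at 99.6, 83.8 and 82.5 CPM in untreated replicates 1 to 3. The ranges overlapped by 1 untreated library, which lay just above the lowest dox-treated one. The dox-treated mean was 109.8 ± 10.7 CPM (SD, n = 3) and the untreated mean 88.6 ± 9.52 CPM (SD, n = 3), which gave a log2 fold change of 0.31 with a 95% interval from -0.01 to 0.63 (adjusted p = 0.186, limma). With 907 to 1859 reads per library, it was also the most deeply covered. It alone made up 33.9%, 45.9% and 64.6% of the summed CPM of the 10 genes in dox replicates 1 to 3, and 41.5%, 49.98% and 39.6% in untreated replicates 1 to 3.

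**Figure D3:**
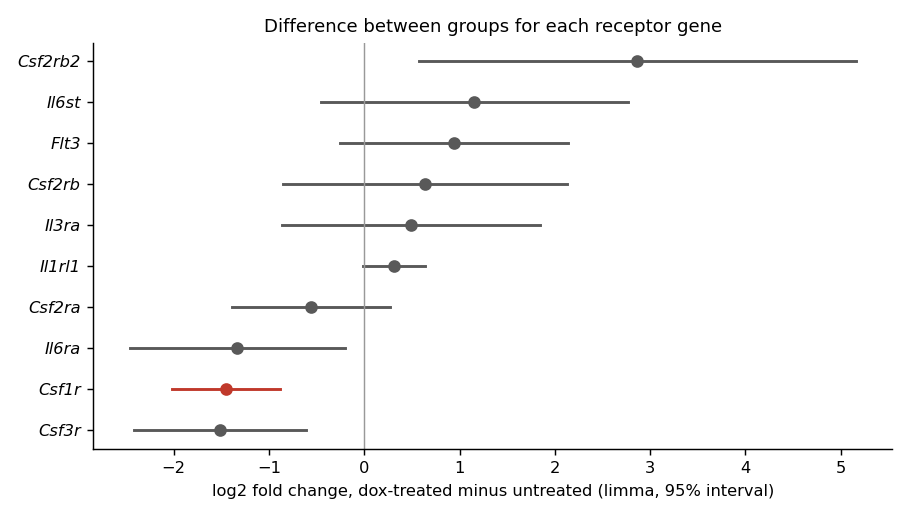
Log2 fold change of each receptor gene, dox-treated minus untreated, as fitted by limma over 6 libraries, with its 95% interval and *Csf1r*, which passed the threshold, in red. The intervals of *Csf1r*, *Csf3r*, *Il6ra* and *Csf2rb2* do not reach 0, and the interval of *Csf2rb2* is the widest, from 0.57 to 5.16.

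Leaving out a single library moved the estimates without turning any of them. Over the 6 omissions the log2 fold change of *Csf2rb2* ran from 2.08 to 3.96, that of *Csf3r* from -1.78 to -1.13 and that of *Il6ra* from -1.64 to -0.85. It ran from 0.45 to 1.27 for *Flt3*, from 0.16 to 1.13 for *Il3ra*, from 0.62 to 1.73 for *Il6st* and from -0.79 to -0.19 for *Csf2ra*. That of *Csf2rb* ran from 0.13 to 1.26, and that of *Il1rl1* stayed between 0.25 and 0.40.

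**Figure D4:**
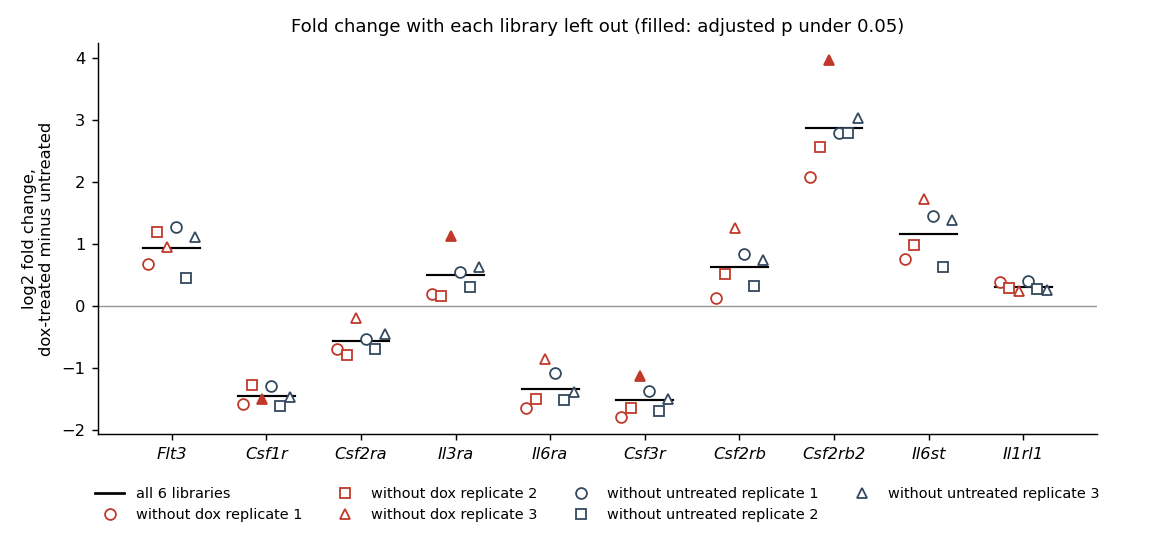
Log2 fold change of each receptor gene with each library left out in turn (symbols) and with all 6 libraries (black lines), filled where the adjusted p of limma was under 0.05. The filled symbols belong to the omission of dox replicate 3, for *Csf1r*, *Il3ra*, *Csf3r* and *Csf2rb2*.

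Levels of different genes were compared per kilobase of the longest annotated transcript. In untreated MEPs, *Il1rl1* and *Csf2ra* had the highest levels, at 16.7 ± 1.8 and 16.2 ± 2.61 CPM per kilobase (SD, n = 3), and their ranges overlapped. *Csf3r* followed at 7.75 ± 1.7 CPM per kilobase (SD, n = 3), separate from the genes above and below it. Then came *Flt3* at 3.27, *Il3ra* at 3.15, *Csf1r* at 2.73, *Csf2rb* at 2.68, *Il6ra* at 1.79 and *Il6st* at 1.28 CPM per kilobase, each overlapping its neighbour. *Csf2rb2* was lowest, at 0.40 ± 0.08 CPM per kilobase (SD, n = 3), with a range that did not meet that of *Il6st*.

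With dox, *Il1rl1* was first at 20.7 ± 2.02 CPM per kilobase (SD, n = 3), above the range of *Csf2ra* at 11.6 ± 4.52 (SD, n = 3). *Flt3* at 5.9, *Il3ra* at 5.15, *Csf2rb* at 4.82, *Csf2rb2* at 4.64, *Il6st* at 2.94 and *Csf3r* at 2.85 CPM per kilobase formed a run of overlapping ranges. *Csf1r* at 0.99 and *Il6ra* at 0.76 CPM per kilobase were lowest. *Csf2rb2* thus moved from rank 10 without dox to rank 6 with dox, with a spread of 4.09 CPM per kilobase (SD, n = 3) that was nearly as large as its mean, and *Csf3r* moved from rank 3 to rank 8. The level of *Csf2rb2* ran from 0.64 CPM per kilobase in dox replicate 3 to 8.81 in dox replicate 1. Ranks were not taken without dox replicate 3. Taking the mean transcript length in place of the longest raised *Il1rl1* to 30.3 and 37.6 CPM per kilobase without and with dox, and left it first. Without dox it put *Csf1r* at rank 4 and *Flt3* at rank 6, and with dox it put *Csf2rb* at rank 4, *Il3ra* at 5, *Csf3r* at 7 and *Il6st* at 8.

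Across the 6 libraries, the receptor genes showed patterns that can only be described, since the points share their group, depth and scaling. The log2 values of *Csf3r* and *Il6ra* had a Pearson correlation of 0.982. *Csf2rb* followed *Il6st* (0.939) and *Il3ra* (0.930), and *Il3ra* and *Il6st* followed each other (0.869). *Csf2ra*, whose groups overlapped, followed *Il6ra* (0.894) and *Csf3r* (0.864), and *Csf1r* followed *Csf3r* (0.857). Among all other genes, the closest to *Csf1r* were *Il28ra* (0.996), *BC051142* (0.992) and *Cebpe* (0.990), the last of which encodes a transcription factor of granulocyte maturation. Closest to *Csf3r* were *Mgl2*, a C-type lectin gene of macrophages (0.995), *Scnn1a* (0.994) and *Plod3* (0.993), and closest to *Il6ra* were *Serpinf1* (0.990), *Klraq1* (0.989) and *Pik3r5* (0.988).

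For the genes with high values in dox replicates 1 and 2, the nearest patterns came from another set. *Csf2rb2* was closest to *Mtcp1* (0.999), *Gm15787* (0.996) and *Rgag4* (0.996), and *Csf2rb* to the immediate early gene *Ier2* (0.994), *Dgkg* (0.994) and *2310014H01Rik* (0.992). *Il6st* was closest to *Nynrin* (0.998), *Plscr3* (0.998) and *Cd9* (0.996), the last of which encodes a tetraspanin of platelets and megakaryocytes. *Il3ra* was closest to *Wdtc1* (0.997), *Crocc* (0.997) and *Gm17414* (0.995). For *Flt3* the nearest gene was *Wdr47* (0.989), for *Csf2ra* *1500010J02Rik* (0.993) and for *Il1rl1* *Kdelr1* (0.993), a gene of protein retrieval to the endoplasmic reticulum.

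Promoter sequences are shown for *Csf3r* and *Il6ra*, which had the closest pair of patterns, and for *Csf2rb2*, the receptor gene with the largest estimated difference. They are the 250 bases before the RefSeq start in GRCm38.p6, written 5′ to 3′ on the strand of the gene. Promoters were searched for 8 of the 10 receptor genes, without *Csf1r* and *Csf2rb*. Capitals mark matches to motif letters, searched on both strands, which are GAGGAA for the core of PU.1 sites and AGATAA for GATA factors. A match on the other strand reads TTCCTC or TTATCT. PU.1 is the central transcription factor of myeloid cells, and GATA factors serve erythroid and megakaryocytic cells.
Csf3r (chr4:126024409-126024658, plus strand): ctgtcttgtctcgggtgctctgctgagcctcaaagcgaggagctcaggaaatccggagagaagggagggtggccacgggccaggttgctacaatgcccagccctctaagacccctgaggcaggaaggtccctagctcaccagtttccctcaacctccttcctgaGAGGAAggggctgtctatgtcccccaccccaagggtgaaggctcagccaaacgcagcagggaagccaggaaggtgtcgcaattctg
Il6ra (chr3:89913197-89913446, minus strand): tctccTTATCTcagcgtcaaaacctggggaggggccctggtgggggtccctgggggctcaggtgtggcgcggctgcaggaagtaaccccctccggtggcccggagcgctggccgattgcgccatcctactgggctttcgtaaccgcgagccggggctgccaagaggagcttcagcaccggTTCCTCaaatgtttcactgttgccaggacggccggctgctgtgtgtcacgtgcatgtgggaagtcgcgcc
Csf2rb2 (chr15:78305722-78305971, minus strand): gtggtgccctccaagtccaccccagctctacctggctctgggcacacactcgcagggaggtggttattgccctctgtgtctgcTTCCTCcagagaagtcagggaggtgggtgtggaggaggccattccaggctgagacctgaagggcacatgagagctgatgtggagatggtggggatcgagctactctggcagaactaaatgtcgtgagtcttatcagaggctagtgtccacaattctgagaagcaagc
The PU.1 core began at base -86 in *Csf3r*, -70 in *Il6ra* and -167 in *Csf2rb2*, and the GATA match at base -245 in *Il6ra*. Neither overlapped another motif searched. Of 32851 promoters of the same length, 23.25% held the PU.1 core and 9.99% the GATA letters, so such matches are common. *Csf2ra* held the PU.1 core at bases -14 and -8. The letters searched for NANOG, TAATGG, were in 6.57% of promoters and, among the receptor genes searched, in *Il6st* at base -248. The C/EBP motif TTGCNNAA, in 9.56% of promoters, matched in *Il3ra* at base -134 and in 1 of the 2 *Il1rl1* promoters at base -34. The other *Il1rl1* promoter held the RUNX letters TGTGGT at base -6, found in 14.1% of promoters, and both held GATA letters, at bases -217 and -103. A match says only that these letters are in the window.

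Ligands of these receptors were mostly not analysed here, with values for 3 of 13 listed genes and 0 called in either direction (limma, and 0 at an unadjusted p under 0.05). With dox replicate 3 left out, 1 of the 3 was called higher, *Flt3l*, and 0 lower. *Osm*, for oncostatin M, had means of 7.97 ± 0.98 CPM in dox-treated and 9.85 ± 1.12 CPM in untreated libraries (SD, n = 3 each; log2 fold change -0.31, adjusted p = 0.216, limma). *Flt3l*, for FLT3 ligand, was at 28.1 ± 4.24 and 22.4 ± 2.14 CPM (SD, n = 3 each; log2 fold change 0.32, adjusted p = 0.226, limma).

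Over all genes tested, 4.59% were called higher and 3.18% lower. The counts of the lists below with all 6 libraries are to be read against these shares. Of the related receptors, 2 of 8 receptor tyrosine kinases were called higher with dox and 0 lower, with a median log2 fold change of 0.81 against -0.03 over all genes. They were *Pdgfrb*, the PDGF receptor of mesenchymal cells, at 24.6 ± 6.86 against 6.03 ± 1.8 CPM (SD, n = 3 each; adjusted p = 0.0226, limma), and *Tek*, the angiopoietin receptor of endothelial and stem cells, at 31.0 ± 19.7 against 2.84 ± 1.53 CPM (SD, n = 3 each; adjusted p = 0.0471, limma). Of 25 other cytokine receptors, 2 were called higher and 0 lower, with a median of 0.15. *Il11ra1*, the IL-11 chain that pairs with gp130, rose from 4.68 ± 1.86 to 20.6 ± 5.94 CPM (SD, n = 3 each), on the log2 scale by 2.16 (adjusted p = 0.0218, limma). *Il4ra*, the IL-4 receptor, rose from 7.14 ± 1.47 to 20.7 ± 6.53 CPM (SD, n = 3 each), on the log2 scale by 1.5 (adjusted p = 0.0354, limma). Leaving out dox replicate 3, the counts were 3 higher and 0 lower for the kinases, and 7 higher and 2 lower for the cytokine receptors, against 14.9% and 14% of all genes under the same omission. *Il11ra1* has a near-identical copy in the mouse genome, so its values are uncertain where reads match both.

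Downstream of the receptors, 0 of 22 JAK-STAT genes were called in either direction by limma, with 5 at an unadjusted p under 0.05, where 29.2% of all genes were, and a median of 0.15. The gene with the smallest p was *Stat3*, the transcription factor used by gp130 and the G-CSF receptor, at 142.3, 154.2 and 76.9 CPM in dox replicates 1 to 3 against 54.7, 39.0 and 49.0 CPM in untreated replicates 1 to 3. The groups did not overlap, but the log2 fold change of 1.34 just missed the threshold (adjusted p = 0.0515, limma). *Pias3*, a STAT inhibitor, was next at 27.1 ± 5.93 against 15.6 ± 2.13 CPM (SD, n = 3 each; adjusted p = 0.0727, limma). When dox replicate 3 was left out, 4 of the 22 were called higher and 0 lower, where 14.9% and 14% of all genes were.

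Among 23 STAT target and feedback genes, 3 were called higher and 2 lower, with a median of 0.11. *Socs2*, an inhibitor of growth hormone and cytokine signalling, was at 37.2, 26.5 and 7.57 CPM in dox replicates 1 to 3 against 1.01, 3.1 and 1.91 CPM in untreated replicates 1 to 3, and rose by 3.4 on the log2 scale (adjusted p = 0.0419, limma). The survival kinase gene *Pim2* rose by 1.04 (adjusted p = 0.0385, limma) and *Socs5* by 0.81 (adjusted p = 0.0369, limma). The genes that fell were *Spry4*, an inhibitor of RAS signalling (log2 fold change -2.83, adjusted p = 0.0213, limma) and the cyclin gene *Ccnd3* (-0.61, adjusted p = 0.0466, limma). Members of this list therefore moved both ways. The counts were 6 higher and 3 lower when dox replicate 3 was left out.

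Of 36 RAS-MAPK and PI3K adaptor genes, 1 was called higher and 0 lower, where 4.59% and 3.18% of all genes were, with a median of 0.00. It was *Lyn*, the SRC-family kinase of myeloid and mast cells, at 87.3 ± 11.6 against 35.1 ± 6.02 CPM (SD, n = 3 each; log2 fold change 1.32, adjusted p = 0.0158, limma). Of the 18 genes that act below the IL-33 receptor and MyD88, 0 were called by limma and 3 had an unadjusted p under 0.05, against 29.2% of all genes. The smallest p-values were those of *Irak2*, a kinase of the MyD88 complex, at 12.9 ± 0.57 with dox against 17.7 ± 1.19 CPM (SD, n = 3 each; adjusted p = 0.0557, limma), and *Irak3*, an inhibitor of that complex, at 29.6 ± 7.58 with dox against 13.5 ± 3.86 CPM (SD, n = 3 each; adjusted p = 0.0672, limma). Leaving out dox replicate 3, the counts were 4 higher and 1 lower for the adaptors, and 2 higher and 2 lower for the MyD88 genes.

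Of 14 myeloid transcription factor genes, 0 were called higher and 3 lower, with a median of -0.62. *Cebpe*, *Cebpd* and *Irf8*, which act in granulocytes and monocytes, fell, with log2 fold changes of -2.85, -2.84 and -2.41 (adjusted p = 0.0109, 0.0114 and 0.0185, limma). The omission of dox replicate 3 gave 1 higher and 5 lower.

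Markers of other blood cell types were set beside the receptor genes. By its definition, the gate removes lineage-positive cells, such as mature neutrophils, monocytes and lymphoid cells, and Sca1+ cells, among them stem cells, and CD34 and CD16/32 set MEPs apart from granulocyte-monocyte progenitors. Of 23 granulocyte-monocyte progenitor markers, 0 were called higher and 14 lower, with a median of -2.12 and a summed level of 1457 to 1825 CPM with dox against 3629 to 7268 CPM without. *Ly6c2*, *Fcnb* and *Elane*, genes of granulocyte and monocyte precursors, fell together with *Cebpe*, with log2 fold changes of -3.31, -3.96 and -3.22 (adjusted p = 0.00828, 0.0101 and 0.0108, limma), although *Ly6c2* can share reads with its close copy *Ly6c1*. Of 18 mature neutrophil and monocyte markers, 0 were called higher and 6 lower, with a median of -1.98 and a summed level of 81.9 to 177.6 CPM with dox against 327.8 to 683.6 CPM without. These included *Cx3cr1*, *Camp*, *S100a8* and *Mpeg1*, with log2 fold changes of -2.20, -3.78, -2.99 and -2.10 (adjusted p = 0.0185, 0.0213, 0.0267 and 0.0277, limma). No detected marker of either list was at 0 in any library. Without dox replicate 3 the counts were 1 higher and 15 lower for the progenitor markers, and 0 higher and 7 lower for the mature ones.

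As with the sums of these markers, the summed level of *Csf1r*, *Csf3r* and *Il6ra* was lower in every dox-treated library. Of the 3 genes, only *Csf1r* passed the test. Their sum was 23.6, 18.5 and 12 CPM in dox replicates 1 to 3 and 60.0, 37.5 and 47.4 CPM in untreated replicates 1 to 3. Per 1000 CPM of granulocyte-monocyte progenitor markers, the same sum was 12.9, 11.3 and 8.23 CPM with dox and 8.26, 10.3 and 8.89 CPM without, so that dox replicates 1 and 2 were above every untreated library and dox replicate 3 was below them all. The groups overlapped through dox replicate 3 alone. The part of these cells in the lower receptor levels was not tested. The 3 receptor genes were put together after their values were seen.

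**Figure D5:**
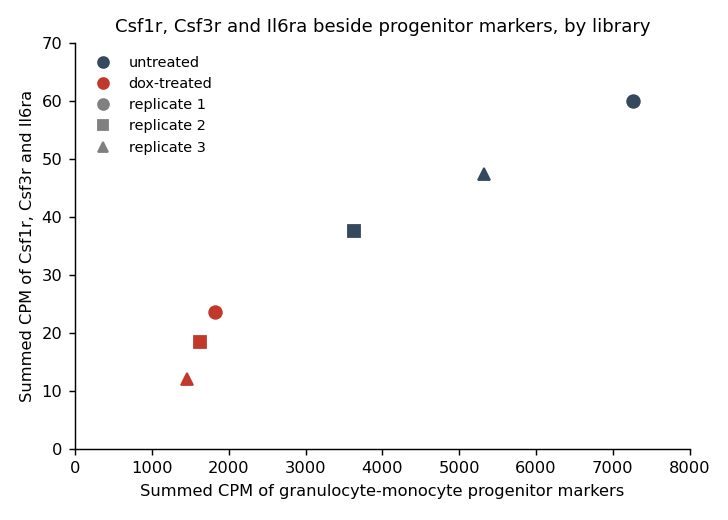
Summed CPM of *Csf1r*, *Csf3r* and *Il6ra* against the summed CPM of 23 granulocyte-monocyte progenitor markers, 1 point per MEP library. The 3 dox-treated libraries lie at 12 to 23.6 CPM of receptors and the 3 untreated ones at 37.5 to 60.0 CPM, and both sums are lower in every dox-treated library.

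The receptor genes with high values in dox replicates 1 and 2 stood beside other lists. The summed level of 13 stem and multipotent progenitor markers was 452.1, 419.0 and 185.8 CPM in dox replicates 1 to 3 and 183.7, 97.7 and 167.1 CPM in untreated replicates 1 to 3, so that dox replicate 3 was again near the untreated libraries. Of these 13 genes, 0 were called by limma and 7 had an unadjusted p under 0.05, against 29.2% of all genes. The smallest p-values were those of *Fgd5* (log2 fold change 3.46, adjusted p = 0.0573, limma) and *Mecom* (2.04, adjusted p = 0.0737, limma), with a median of 1.22 over the list. The omission of dox replicate 3 gave 7 higher and 0 lower.

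Of 11 mast cell and basophil markers, 3 were called higher and 1 lower, with a median of 0.59 and a summed level of 573.8 to 781.4 CPM with dox against 418.8 to 652.6 CPM without. *Cpa3*, a mast cell protease gene, rose by 2.93 on the log2 scale (adjusted p = 0.00965, limma), *Ms4a2*, a chain of the high-affinity IgE receptor, by 2.76 (adjusted p = 0.0219, limma) and *Slc18a2*, a monoamine transporter gene, by 1.5 (adjusted p = 0.0321, limma). The leukotriene enzyme gene *Alox5* fell by 1.40 (adjusted p = 0.023, limma). Another 12 listed markers of these cells, among them *Fcer1a*, *Mcpt4* and *Tpsb2*, were not analysed here. Without dox replicate 3, 5 were called higher and 2 lower. The part of any of these cell types in the levels of *Csf2rb*, *Csf2rb2*, *Il3ra*, *Il6st* and *Il1rl1* was not tested.

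Of the 21 MEP markers, 1 was called higher, *Gp9* of platelets (log2 fold change 1.28, adjusted p = 0.0321, limma), and 1 lower, *Ermap* of erythroid cells (-0.77, adjusted p = 0.0236, limma), with a median of -0.39. Over all genes, 4.59% were called higher and 3.18% lower. Of 14 lymphoid and dendritic markers, 1 was called lower, *Zbtb46* of dendritic cells (-1.07, adjusted p = 0.0486, limma), with a median of 0.07. The summed level of that list was 94.0 to 165.9 CPM with dox and 140.7 to 158.5 CPM without, and 2 of its genes were at 0 in at least 1 library. All 11 genes read for RNA quality and housekeeping had lower mean log2 values with dox, with a median of -0.15. Their summed level was 15848 to 20236 CPM with dox and 26813 to 28631 CPM without. Of the 11, 3 mitochondrial ones were called lower, *mt-Cytb*, *mt-Nd1* and *mt-Co1*, with log2 fold changes of -0.61, -0.90 and -0.76 (adjusted p = 0.0357, 0.0389 and 0.0463, limma). The part of these 11 genes in the receptor levels was not tested. Without dox replicate 3 the counts were 2 higher and 8 lower for the MEP markers, 0 and 2 for the lymphoid and dendritic markers and 0 and 3 for the RNA quality genes.

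Over all these related lists, a gene on several lists being counted once, 12 genes were called higher and 29 lower. Leaving out dox replicates 1, 2 and 3 in turn gave 2, 1 and 40 higher and 7, 14 and 46 lower. For untreated replicates 1, 2 and 3 the counts were 2, 2 and 3 higher and 8, 18 and 2 lower. The list calls thus depend on each library, dox replicate 3 in the opposite direction from the other 5.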

How the data were processed

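Reads of MEP RNA (NEBNext Ultra libraries, Illumina GAIIx) were trimmed with Cutadapt, quantified with RSEM (Ensembl transcripts of NCBIM37) and then normalized with limma by the authors. They deposited log2 values of CPM with 0.5 reads added for 12101 genes, with a column for each of the 6 libraries. The method behind the library sizes is not given in the sources used here. Every value corresponded to a whole number of reads within 0.0001 reads (100% of values), and these recovered reads gave the depth and the Wilson 95% intervals, which cover counting error only because PCR reads are not independent molecules. A floor of 3 reads is 0.193 to 0.273 CPM. No count model was fitted to the recovered reads, which entered fits only in alternatives (voom weights and scaling to total reads).

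Groups were taken from the sample titles. Differential expression used limma 3.58.1 (R 4.3.3), with lmFit and eBayes run on log2 values as deposited. Genes entered if 3 or more libraries reached 1 CPM, which kept 12088, and p-values were adjusted after Benjamini and Hochberg with a threshold of 0.05. Fold changes on the log2 scale with 0.5 reads added understate changes of genes with few reads. The fit was also run on simulated reads with the same relative spread for every gene and no library standing apart. That run therefore cannot show how the fit handles dox replicate 3. Gene symbols came from the NCBIM37 annotation for 12067 genes.

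The receptor genes and the gene lists were chosen with earlier results of these data known. Named in the text are the 10 receptor genes, *Nanog*, and up to 4 genes per direction and list with the smallest p-values past the threshold (otherwise the 2 with the smallest p). Also named are up to 3 genes with the highest Pearson correlation to each receptor gene, and overlapping or near-identical genes. Alternatives were another pseudocount, other filters, a mean-variance trend, array or voom weights, other scalings, a replicate block and the omission of each library. Python 3.11.15 was used with pandas 2.3.3, scipy 1.17.1, numpy 2.4.6 and matplotlib 3.10.9. The other experiments of the study were not analysed here.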

Additional observations from a re-analysis of the deposited data

How the results depend on the processing

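Of the 10 receptor genes, none changed the direction of its log2 fold change under the 16 alternatives run for each (15 for *Il6ra*, which has no value with a filter at a mean of 5 CPM). The adjusted p of *Csf1r* (limma) lay between 0.00646 and 0.0904, under 0.05 in 10 of 16. That of *Csf3r* ran from 0.00852 to 0.159, under 0.05 in 8, and that of *Csf2rb2* from 0.00461 to 0.290, under 0.05 in 3. *Il3ra* passed in 2, *Il6ra* in 2, *Il6st* in 1, and *Flt3*, *Csf2ra*, *Csf2rb* and *Il1rl1* in 0. The count of 0 receptor genes higher (4 of 10 had an unadjusted p under 0.05 in either direction, against 29.2% of all genes) became 3 with array weights, where 20.8% of all genes were higher and 21.5% lower, and 1 with voom weights and the replicate block (4.76% of all genes higher), with a range of 0 to 2 with a library left out. The count of 1 lower became 2 with log2(CPM + 1), with a mean of at least 5 CPM, with a mean-variance trend, with voom weights and with voom weights and the replicate block, 3 with array weights and with quantile normalization (4.44% of all genes lower), and ran from 0 to 2 with a library left out. In the settings that gave 2 with all 6 libraries, from 2.9% to 6.18% of all genes were lower. With a library left out, from 0.761% to 14.9% of all genes were higher and from 0.298% to 14% lower. The causes were not tested.

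For the related lists, the 12 higher calls became 24 with the trend, 56 with array weights and 21 with voom weights and the replicate block. They numbered from 1 to 40 with a library left out. The 29 lower calls became 69 with array weights and 44 with quantile normalization, and ran from 2 to 46. Over all genes, the 555 higher and 384 lower calls became 909 and 747 with the trend and 2515 and 2601 with array weights, and ran from 92 to 1801 and from 36 to 1687 with a library left out. Scaling to total reads moved the median of all genes by 0.11 on the log2 scale and turned no receptor gene.

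Whether same-numbered replicates were collected together is not given in the sources used here. Their deviations from the group means correlated at 0.0184, -0.121 and -0.299, and not every library correlated best with its own number. Deviations from the mean of 3 libraries cancel out within a group, so these correlations cannot decide whether replicates were paired. With the replicate block, 53 genes were higher and 29 lower, 0 and 3 of the related lists, and 0 receptor genes in either direction (*Csf1r*, adjusted p = 0.0516, limma). Voom weights with the block were chosen after seeing the data. The difference in *Csf2rb2* share was 28.6 percentage points with 0.5 reads added and 24.2 to 36.3 with a library left out. Depth limits *Il6ra* and untreated *Csf2rb2* most, with as few as 18 and 21 reads.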
